A study of Mus musculus with 6 samples.

Results

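Myelin is built mostly of lipid, and its galactosylceramide and sulfatide set it apart from other membranes. Oligodendrocytes make these lipids on a ceramide backbone that carries a very long, often 2-hydroxylated fatty acid, to which galactose and then sulfate are added. Acetate released from N-acetylaspartate, which neurons produce, is used as a building block for myelin fatty acids. The 9 genes described here cover these steps and were taken from the 54532 genes of the deposited table by their symbols. They are Sptlc2, Degs1 and Cers2 for the ceramide backbone, Elovl1, Elovl7 and Fa2h for the fatty acid, Ugt8a and Gal3st1 for the galactolipids, and Aspa for N-acetylaspartate. All 9 were among the 20952 genes with a mean of at least 0.1 FPKM (fragments per kilobase of gene, scaled to library size) that were tested. In GRCm38 coordinates the genes lie at chr12:87305058-87388355 (Sptlc2, minus strand), chr1:182275772-182282804 (Degs1, minus), chr3:95314791-95323599 (Cers2, plus), chr4:118428093-118432953 (Elovl1, plus), chr13:108214404-108285683 (Elovl7, plus), chr8:111345135-111393824 (Fa2h, minus), chr3:125865271-125938619 (Ugt8a, minus), chr11:3983636-3999326 (Gal3st1, plus) and chr11:73304992-73329596 (Aspa, minus). FPKM were scaled by the length of each gene's annotated exons joined together, UTRs included.

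RNA-seq was performed on the hippocampus of wild-type (WT) mice and transgenic (TG) mice, with 3 libraries of each. The libraries are numbered WT1 to WT3 and TG1 to TG3 as in the labels. The sources used here do not say whether each library is 1 mouse, so n below counts libraries. In the TG mice the substitutions G82R and L85P of Slc1a2 were knocked into the gene itself by CRISPR/Cas9 on a C57BL/6N background, so that every cell carries them, and the WT mice were littermates. Neither the age of the mice nor whether the sequenced TG mice had 1 or 2 copies of the changed gene is given in the sources used here. The targeted gene Slc1a2, which encodes the astrocytic glutamate transporter GLT-1, had 202, 199.5 and 177 FPKM in WT1 to WT3 and 222, 207 and 217 FPKM in TG1 to TG3, and these levels do not show which allele was read.

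The libraries held 16081281 to 18751057 reads on genes. The 9 genes had 112 to 1394 reads per library, which sets the 95% counting error of a value (exact Poisson interval) at 5.29% to 19.0% of the value. Reads carry no molecular identifiers, so these intervals cover counting error only. Markers of the labelled tissue were present in every library, with summed levels of 8 neuron markers of 922 to 929 FPKM in WT and 869 to 975 FPKM in TG mice. TG1 and TG2 stood apart. The 11 markers of the choroid plexus epithelium, none of them at 0 in any library, summed to 57.9 to 82.6 FPKM in WT mice, and to 1217, 3849 and 66.2 FPKM in TG1 to TG3. The 14 structural myelin and mature oligodendrocyte genes summed to 940, 897 and 759 FPKM in WT1 to WT3 and to 584, 801 and 865 FPKM in TG1 to TG3, so TG1 was the lowest. Precursor, astrocyte and endothelium markers had TG sums inside the WT range (31.0 to 32.0 within 28.7 to 33.0 FPKM, 493 to 521 within 492 to 558 FPKM, and 79.5 to 83.2 within 74.7 to 87.3 FPKM), while the 7 microglia markers reached 118 to 161 FPKM in TG against 129.6 to 146 FPKM in WT mice. In bulk tissue, fewer cells of a type and less RNA per cell cannot be told apart.

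TG and WT libraries were compared by limma on the log2(FPKM + 0.1) values of all 20952 genes, with Benjamini-Hochberg adjustment. Fold changes are on this scale, which understates changes of low genes. None of the 9 genes had an adjusted p under 0.05 in either direction, the smallest being 0.786 for Fa2h, and none had an unadjusted p under 0.05. With limma-voom on the recovered reads, 1 gene (Fa2h) had an unadjusted p under 0.05, as did 5.98% of all genes tested. None of the 9 had an adjusted p under 0.05 with limma-voom. Across all genes tested, an adjusted p under 0.05 was reached by 0.00477% in the higher and 0.00477% in the lower direction, and an unadjusted p under 0.05 by 3.13% (656 genes) in the higher and 2.78% (582 genes) in the lower direction. After rescaling the libraries to one median, this split became 481 higher and 760 lower genes. In none of the 9 genes did all TG libraries lie on one side of all WT libraries, whereas this was so for 6.35% of all genes in the higher and 5.71% in the lower direction. The median log2 fold change of the 9 genes was -0.07, with 6 below 0 and 3 above, and over all genes tested the median was -0.002, with 50.4% below 0.

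**Figure D1:**
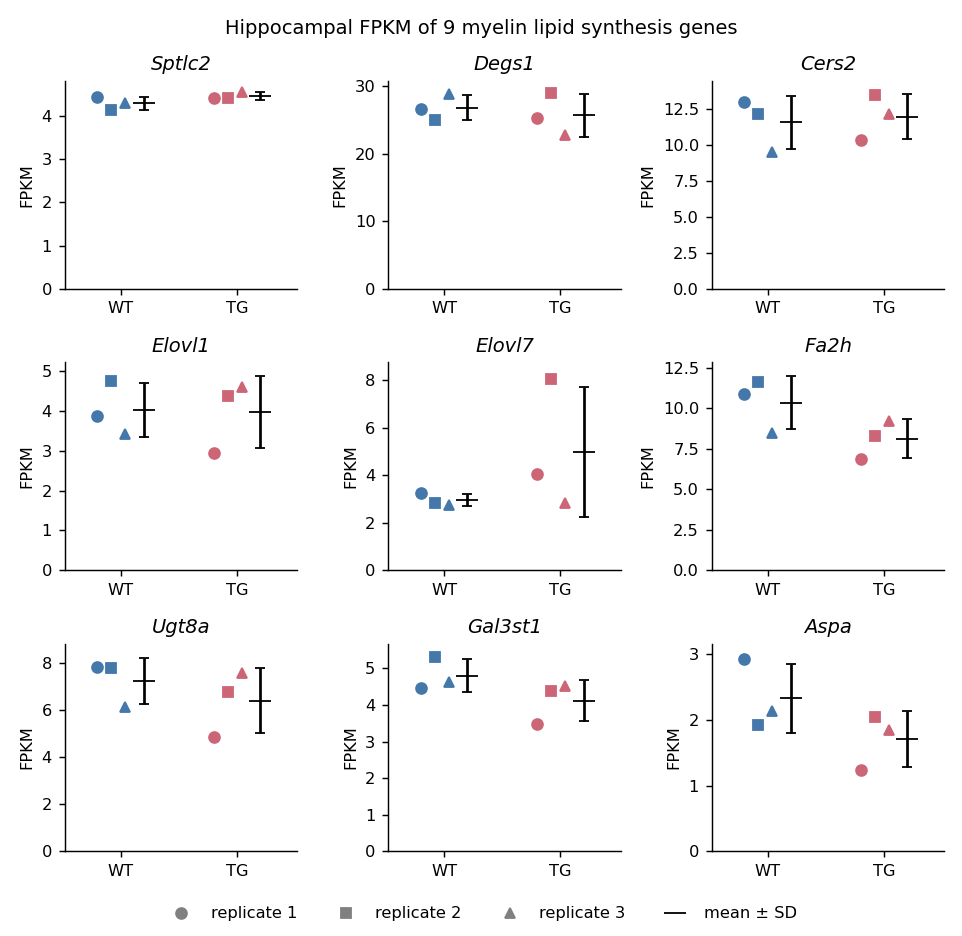
FPKM of the 9 genes in each library (points, marked by replicate number) with the mean ± SD of 3 libraries per group, each panel on its own axis from 0. Fa2h, Ugt8a, Gal3st1, Aspa and Elovl1 are lowest in TG1, Elovl7 is highest in TG2 at 8.03 FPKM, and WT and TG points overlap in every panel.

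The genes of the ceramide backbone had log2 fold changes between -0.07 and 0.05. Sptlc2 encodes a catalytic subunit of serine palmitoyltransferase, the enzyme that starts sphingolipid synthesis. Its level was 4.43, 4.13 and 4.28 FPKM in WT1 to WT3 and 4.40, 4.40 and 4.55 FPKM in TG1 to TG3. This was the steadiest of the 9 genes, with its highest library 1.10 times its lowest, and the log2 fold change was 0.05 (standard error 0.08, 95% interval -0.14 to 0.25, limma adjusted p = 0.873). Degs1, the desaturase that turns dihydroceramide into ceramide, was the most abundant of the 9, with 26.6, 25.0 and 28.7 FPKM in the WT and 25.3, 28.9 and 22.7 FPKM in the TG libraries. The TG values spread on both sides of the WT range, and the log2 fold change was -0.07 (95% interval -0.31 to 0.17). With the choroid plexus median, which was high only in TG1 and TG2, as a covariate it was -0.24 (limma unadjusted p = 0.0854). Cers2, the ceramide synthase that prefers very long acyl chains, had 13.0, 12.2 and 9.52 FPKM in the WT and 10.3, 13.5 and 12.1 FPKM in the TG libraries. Its difference of 0.05 on the log2 scale (95% interval -0.28 to 0.39) was smaller than the spread within either group. Cers2 shares 75 exon bases with Setdb1 and 144 with the antisense gene 6330562C20Rik on the other strand, together a small part of its 3676 bases, and strand was not stated for the counting.

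Among the fatty acid genes, Fa2h had the smallest p of all 9. It encodes fatty acid 2-hydroxylase, which makes the 2-hydroxy fatty acids of myelin galactolipids. It is one of the genes that the study picked out of these libraries, so its direction is not independent evidence. The study discusses it with its decreased genes, called at cutoffs that include an adjusted p under 0.05, by a test it does not name. In the limma fit used here, that threshold was not reached by Fa2h. It had 10.9, 11.6 and 8.51 FPKM in WT1 to WT3 and 6.87, 8.29 and 9.24 FPKM in TG1 to TG3. TG1 and TG2 lay below all WT libraries, and TG3 lay above WT3. The mean was 10.3 ± 1.63 FPKM in WT and 8.13 ± 1.19 FPKM in TG mice (SD, n = 3 each). On the log2 scale the TG libraries differed by -0.34 (standard error 0.15, 95% interval -0.69 to 0.01, limma unadjusted p = 0.0562, adjusted p = 0.786). The difference was -0.23 when TG1 was left out and -0.47 when WT3 was left out.

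Elovl1 and Elovl7 belong to the elongase family, which lengthens fatty acids, and differed in pattern. Elovl1, which makes very long chain fatty acids used in sphingolipids, had 3.87, 4.77 and 3.43 FPKM in the WT and 2.94, 4.38 and 4.61 FPKM in the TG libraries. TG1 was the lowest and TG2 and TG3 lay within the WT range, and the log2 fold change was -0.03 (95% interval -0.49 to 0.43). Without TG1 the direction turned, to 0.17. Elovl1 shares 53 of its 2726 exon bases with Cdc20 on the other strand.

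Elovl7 had the widest spread of the 9 genes. Its level was 3.23, 2.82 and 2.76 FPKM in WT1 to WT3 and 4.06, 8.03 and 2.81 FPKM in TG1 to TG3. The 95% counting interval of TG1, on 258 reads, was 3.58 to 4.59 FPKM. It overlapped that of WT1 (2.84 to 3.67 FPKM, 240 reads) but not that of WT2 (2.43 to 3.26 FPKM, 183 reads). TG3 lay within the WT range, so the excess was in TG1 and TG2 only. These were also the libraries with raised choroid plexus markers, whose median log2 difference from the WT mean was 3.46 in TG1, 5.0 in TG2 and -0.06 in TG3. Elovl7 lay 0.46, 1.42 and -0.06 from its WT mean in the same libraries. The log2 fold change was 0.61 (standard error 0.34, 95% interval -0.18 to 1.40, limma adjusted p = 0.789). It was 0.20 without TG2 and 0.94 without TG3 (unadjusted p = 0.0218), and with the choroid plexus median as a covariate it turned to -0.14 (unadjusted p = 0.559). This covariate was high only in TG1 and TG2, so the fit can hardly separate it from genotype. The part of the choroid plexus in the Elovl7 values was not tested.

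**Figure D2:**
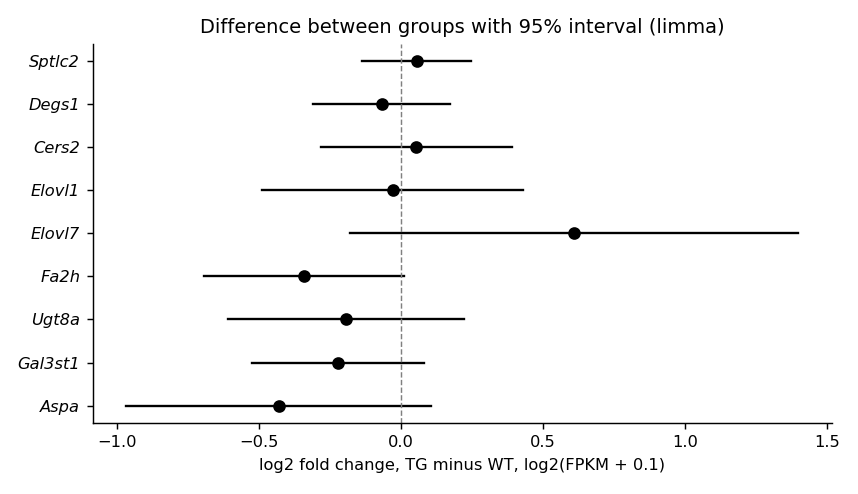
Log2 fold change of the 9 genes, TG minus WT, on log2(FPKM + 0.1) (points) with 95% intervals from limma (lines), 3 libraries per group. Every interval includes 0, that of Fa2h only just, from -0.69 to 0.01, and that of Elovl7 is the widest, from -0.18 to 1.40.

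The galactolipid genes were lowest in TG1. Ugt8a encodes the galactosyltransferase that forms galactosylceramide. It had 7.86, 7.79 and 6.12 FPKM in WT1 to WT3 and 4.88, 6.76 and 7.57 FPKM in TG1 to TG3. TG1 lay under every other library, with a 95% counting interval of 4.38 to 5.41 FPKM, and TG2 and TG3 lay within the WT range. The means were 7.26 ± 0.983 FPKM and 6.40 ± 1.38 FPKM (SD, n = 3 each), and the log2 fold change was -0.19 (standard error 0.18, 95% interval -0.61 to 0.22, limma adjusted p = 0.791). The value was -0.01 when TG1 was left out and -0.05 with the choroid plexus median as a covariate. Gal3st1, the sulfotransferase that turns galactosylceramide into sulfatide, had 4.45, 5.31 and 4.63 FPKM in the WT and 3.47, 4.37 and 4.50 FPKM in the TG libraries. TG1 and TG2 lay below the WT range and TG3 above WT1, and the log2 fold change was -0.22 (standard error 0.13, 95% interval -0.52 to 0.08, limma adjusted p = 0.789). It became -0.11 when TG1 was left out.

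Aspa encodes aspartoacylase, which splits N-acetylaspartate into acetate and aspartate in oligodendrocytes. It was the least abundant of the 9 genes, with 2.92, 1.91 and 2.14 FPKM in WT1 to WT3 and 1.23, 2.04 and 1.84 FPKM in TG1 to TG3. The value of TG1 rested on 116 reads, with a 95% counting interval of 1.02 to 1.48 FPKM that lay under that of WT2, 1.65 to 2.21 FPKM. The log2 fold change was -0.43 (standard error 0.23, 95% interval -0.97 to 0.11, limma adjusted p = 0.789). It became -0.23 when TG1 was left out and -0.26 when WT1 was left out. The SD was 22.7% of the mean in WT and 24.8% in TG mice.

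Per kilobase of gene, the order of the levels in WT mice was Degs1, Cers2, Fa2h, Ugt8a, Gal3st1, Sptlc2, Elovl1, Elovl7 and Aspa. The ranges over libraries overlapped for the neighbours Cers2 and Fa2h, Sptlc2 and Elovl1, and Elovl7 and Aspa. In TG mice Elovl7 came before Sptlc2, Gal3st1 and Elovl1, but its range overlapped those of both its neighbours, Ugt8a and Sptlc2. Degs1 stayed first and Aspa last, each apart from its neighbour in TG mice.

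**Figure D3:**
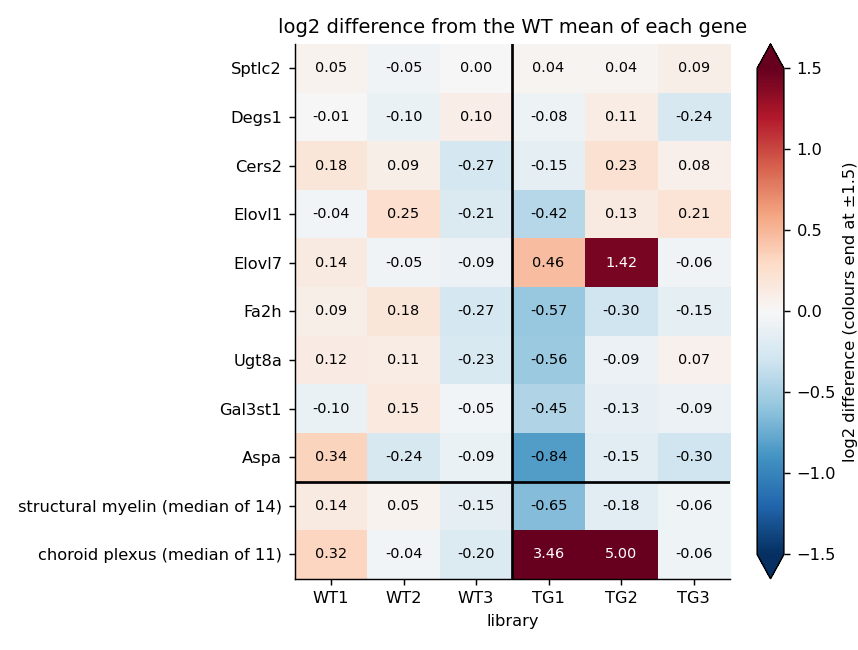
Log2 difference of each gene from its WT mean in each library (rows of 9 genes), with the medians of 14 structural myelin genes and 11 choroid plexus markers under the line. Colours end at ±1.5. TG1 is low for Fa2h, Ugt8a, Gal3st1, Aspa and structural myelin (-0.65), and TG1 and TG2 are high for Elovl7 and for the choroid plexus markers (3.46 and 5.0).

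Across the libraries, several of the genes followed the structural proteins of myelin. The structural myelin genes had a median log2 difference from the WT mean of 0.14, 0.05 and -0.15 in the WT libraries, and of -0.65, -0.18 and -0.06 in TG1 to TG3. All 14 were below 0 in log2 fold change, with a median of -0.28. Before adjustment, limma gave a p under 0.05 for 2 of them, and after adjustment for none (smallest adjusted p = 0.786). Mbp, the most abundant, had a log2 fold change of -0.07. Pearson's r with this median over the 6 libraries was 0.96 for Ugt8a, 0.92 for Fa2h, 0.87 for Aspa, 0.85 for Gal3st1, 0.73 for Elovl1 and 0.53 for Cers2. It was -0.01 for Degs1, -0.17 for Sptlc2 and -0.32 for Elovl7. These are descriptions over 6 points that share library and tissue piece. Without TG1, r stayed at 0.92 for Fa2h and 0.83 for Ugt8a, but was 0.57 for Aspa, 0.33 for Gal3st1 and 0.15 for Elovl1, so the last 3 rested on that library. It was 0.34 for Cers2 and -0.41 for Degs1 without TG1, 0.20 for Sptlc2 without WT2 and -0.75 for Elovl7 without TG2. How the myelin content of each tissue piece entered these values was not tested.

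Expressed relative to the structural myelin median of the same library, Ugt8a had log2 differences of -0.02, 0.06 and -0.09 in the WT libraries, and of 0.09, 0.08 and 0.13 in the TG libraries. On this scale, chosen after seeing the data, all TG values lay above all WT values for Ugt8a, Cers2 and Elovl1, 3 of the 9 genes, and below them for none. The same was so for 21.5% of all genes in the higher and 0.544% in the lower direction, with a divisor that was itself lowest in TG1, and the ratio was not tested. Fa2h lay -0.05, 0.13 and -0.12 in the WT and 0.08, -0.13 and -0.09 in the TG libraries, with overlapping groups. By contrast, Sptlc2, which did not follow myelin, lay 0.69, 0.21 and 0.15 above it in TG1 to TG3, and -0.09, -0.10 and 0.15 from it in the WT libraries, where WT3 and TG3 had nearly the same value. Between the genes themselves, r over the 6 libraries was 0.91 for Ugt8a with Fa2h, 0.85 for Gal3st1 with Fa2h and 0.87 for Ugt8a with Elovl1, and it was -0.05 for Ugt8a with Sptlc2 and -0.21 for Ugt8a with Degs1.

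**Figure D4:**
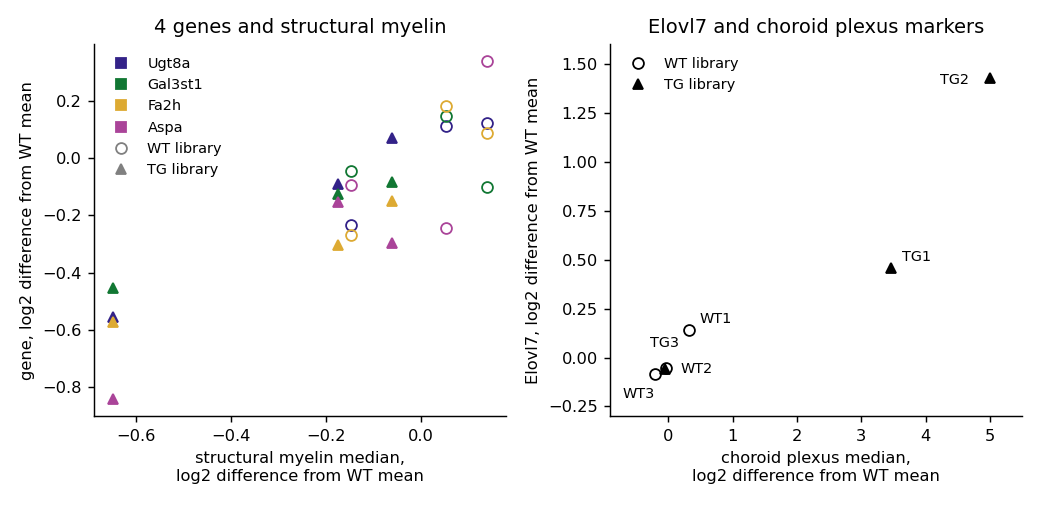
Left, log2 difference from the WT mean of Ugt8a, Gal3st1, Fa2h and Aspa against the structural myelin median in each of 6 libraries, where TG1 is the point at -0.65. Right, the same difference of Elovl7 against the choroid plexus median, where TG1 and TG2 stand at 3.46 and 5.0 and the other libraries between -0.20 and 0.32.

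By the median profile of the 9 genes over the 6 libraries, the most similar genes among 13316 others with a mean of at least 1 FPKM were Actl6a (r = 0.99), Lgals8 (0.99), Pgam5 (0.99), Stx5a (0.985) and Gm23205 (0.985). Each was lowest in TG1, and 84 genes had r above 0.9. Gm23205 had 0 FPKM in TG1 and only 2 to 9 reads in each of the other libraries, so its likeness rests on few reads. The 14 structural myelin genes had a median r of 0.92 with this profile, the lowest being 0.54. How far these r rest on TG1 was not tested.

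The sequences just upstream of the start sites are shown for Ugt8a, Gal3st1 and Aspa, which were low together in TG1, and for Elovl7, which was not. They were taken from RefSeq (GRCm38.p6), each 300 bases from 250 before to 50 after a start site on the strand of the gene. Such sequences were found for 8 of the 9 genes, in 12 windows, since some genes have several start sites. Fa2h was not among them. The windows of Elovl1, which was also lowest in TG1, are not shown. Capitals mark the GC box, whose letters are GGGCGG, the CCAAT box, and the TATA box, searched as TATAAA. Each was searched on both strands, so the reverse complement is in capitals too, and neighbouring matches can overlap. The windows are chr3:125938603-125938902 on the minus strand for Ugt8a, chr11:3983386-3983685 on the plus strand for Gal3st1 (the first of its 3 windows), chr11:73324588-73324887 on the minus strand for Aspa and chr13:108214154-108214453 on the plus strand for Elovl7.
Ugt8a: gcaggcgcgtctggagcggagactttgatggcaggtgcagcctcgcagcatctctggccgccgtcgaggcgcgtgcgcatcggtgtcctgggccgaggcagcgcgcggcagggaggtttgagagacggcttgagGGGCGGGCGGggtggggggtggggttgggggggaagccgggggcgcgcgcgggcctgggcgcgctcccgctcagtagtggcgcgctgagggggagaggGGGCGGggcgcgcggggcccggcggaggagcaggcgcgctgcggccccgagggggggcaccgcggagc
Gal3st1: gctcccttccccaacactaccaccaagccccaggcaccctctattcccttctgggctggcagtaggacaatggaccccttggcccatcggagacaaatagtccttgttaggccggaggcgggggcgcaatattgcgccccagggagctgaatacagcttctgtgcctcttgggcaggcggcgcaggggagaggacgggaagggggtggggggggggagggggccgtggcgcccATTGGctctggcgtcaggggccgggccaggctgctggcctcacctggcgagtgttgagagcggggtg
Aspa: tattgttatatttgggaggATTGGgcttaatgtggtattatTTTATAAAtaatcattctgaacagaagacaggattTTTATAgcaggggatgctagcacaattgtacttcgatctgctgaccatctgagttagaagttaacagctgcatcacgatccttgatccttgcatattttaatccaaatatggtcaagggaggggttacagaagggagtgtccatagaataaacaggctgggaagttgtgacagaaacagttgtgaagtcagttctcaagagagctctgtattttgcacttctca
Elovl7: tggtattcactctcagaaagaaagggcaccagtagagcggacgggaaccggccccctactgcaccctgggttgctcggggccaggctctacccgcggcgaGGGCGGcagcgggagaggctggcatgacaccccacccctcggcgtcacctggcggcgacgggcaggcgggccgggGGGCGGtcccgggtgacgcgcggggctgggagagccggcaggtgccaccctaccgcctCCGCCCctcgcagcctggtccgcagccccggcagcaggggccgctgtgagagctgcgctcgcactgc
The windows differ in composition. G and C make up 78.3% of that of Ugt8a, 67.0% of that of Gal3st1 and 74.0% of that of Elovl7, but 39.0% of that of Aspa, which holds 3 TATA matches and no GC box. GC boxes occurred in 6 of the 12 windows and in 35.7% of all 32851 promoter windows, CCAAT boxes in 7 of the 12 and in 37.4%, and TATA in 1 of the 12 and in 13.6%. The windows are not independent: those of Gal3st1 account for 3 of the 7 with a CCAAT box, and 2 of them overlap and hold the same box. The letters CTGGCAC or CTGGTAC, the core bound by the oligodendrocyte factor MYRF, and ACAAAG, a core bound by Sox factors, were in none of the 12 windows, against 7.10% and 18.7% of all windows. A match is a run of letters, not a site, and its absence here concerns only these letters in these windows.

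The other genes of the pathway were compared in 7 lists, of 92 genes in all, of which 89 were tested. No gene had an adjusted p under 0.05 with limma (smallest 0.786), 3 were higher (of all genes tested, 3.13%) and none lower (2.78%) at an unadjusted p under 0.05, and the median log2 fold change was 0.02. In the breakdown list, which covers lysosomal and ceramide-degrading enzymes, 2 of the 25 tested genes passed this unadjusted threshold, both higher in TG mice. In this list 19 had a log2 fold change above 0, while 50.4% of all genes tested lay below 0. Acer2, an alkaline ceramidase, had 1.47, 1.52 and 1.75 FPKM in the WT and 2.24, 2.31 and 2.17 FPKM in the TG libraries, so the groups lay apart, with a log2 fold change of 0.48 (standard error 0.12, limma unadjusted p = 0.00548, adjusted p = 0.786). Between 0.43 and 0.55 remained when any 1 library was left out. Asah2, the neutral ceramidase, named because it was in this count, had 2.50, 2.17 and 2.06 FPKM in the WT and 2.74, 3.44 and 2.93 FPKM in the TG libraries (log2 fold change 0.42, limma adjusted p = 0.786). Psap, which encodes the activator proteins of lysosomal sphingolipid breakdown and was the most abundant of the list, had 568 ± 38.3 FPKM in WT and 608 ± 56.5 FPKM in TG mice (SD, n = 3 each). Across the breakdown list the median log2 fold change was 0.05.

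In the list of enzymes that add other head groups or sugars to ceramide, 1 of 14 genes was higher at an unadjusted p under 0.05 (of all genes tested, 3.13%). This was Sgms2, a sphingomyelin synthase, with 0.539, 0.577 and 0.60 FPKM in the WT and 1.46, 2.28 and 0.640 FPKM in the TG libraries (log2 fold change 1.06, limma adjusted p = 0.786), with all TG values above the WT values. Like Elovl7, it was high in TG1 and TG2, the libraries with raised choroid plexus markers, and closer to the WT level in TG3. Without TG2 its log2 fold change was 0.68, and its unadjusted limma p was above 0.05 when any library but TG3 was left out. St3gal5, the most abundant, which makes the ganglioside GM3, had a log2 fold change of -0.02.

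Further lists had no gene at an unadjusted p under 0.05. Of the ceramide synthesis list, 13 of 14 genes were tested, with a median log2 fold change of -0.06. Cers1, the ceramide synthase of neurons, had the smallest p, with 18.3, 19.0 and 18.9 FPKM in the WT and 21.3, 19.7 and 20.9 FPKM in the TG libraries (log2 fold change 0.13, limma unadjusted p = 0.0707), and Ormdl3, a regulator of serine palmitoyltransferase, was the most abundant with a log2 fold change of 0.10. The elongation list had 10 of 11 genes tested and a median of -0.01, with 0.18 for Elovl6 and -0.04 for Tecr, the enoyl reductase of the elongation cycle. The 14 genes of fatty acid synthesis and desaturation had a median of 0.02. Thrsp, a lipogenic protein, had 13.1, 14.9 and 21.2 FPKM in the WT and 10.7, 12.7 and 13.0 FPKM in the TG libraries, so all TG values lay below the WT values (log2 fold change -0.41, limma unadjusted p = 0.0522, adjusted p = 0.786). Without WT3, the highest library, it was -0.21 (limma unadjusted p = 0.113). The unadjusted p was 0.0304 with limma-voom, 0.015 with the replicate number as a block and 0.0228 without WT1. That p was above 0.05 when any library other than WT1 was left out. Scd2, the main brain desaturase and the most abundant of this list, had 286 ± 11.8 FPKM in WT and 283 ± 0.437 FPKM in TG mice (SD, n = 3 each).

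Of the 6 genes of N-acetylaspartate, the median log2 fold change was 0.08. Nat8l, the enzyme that makes N-acetylaspartate in neurons, had 59.1, 61.5 and 62.5 FPKM in the WT and 71.0, 58.7 and 67.7 FPKM in the TG libraries (log2 fold change 0.10, limma adjusted p = 0.789). Its TG1 value was the highest of the 6 libraries, while that of Aspa was the lowest. Rimklb, an N-acetylaspartylglutamate synthetase, had a log2 fold change of -0.16, which was -0.27 without WT2 and -0.067 without WT3. The 7 genes of ether lipid synthesis, the route to the plasmalogens of myelin, had a median of -0.02, with -0.21 for Far1 and -0.02 for Gnpat. Far1, a reductase that makes the fatty alcohols of ether lipids, was at -0.098 without TG1. Its limma unadjusted p was 0.111 in the main fit and above 0.05 when any 1 library was left out. It was 0.0868 with limma-voom and 0.0468 with the replicate number as a block.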

How the data were processed

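RNA was measured in 3 WT and 3 TG hippocampus libraries. The authors counted reads per gene with HTSeq 0.6.0, computed FPKM from read count and gene length, and deposited these FPKM with 1 column per library. The aligner is not given in the sources used here, and the submitters' processing notes name GRCm38 and mm10. The paper names Trizol and a NEBNext kit, and the labels an RNeasy and a SMARTer kit. FPKM times gene length came out as whole reads for 100.0% of values (tolerance 0.05 reads), so reads were recovered. Of 54532 gene identifiers, 54409 were in GENCODE M21 and 53499 of them had the same start and end, including all 9 genes. Of the 50-base stretches of their transcripts, 0.354% of those of Degs1 and none of the others occur in another gene.

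TG and WT were compared by limma 3.58.1 (R 4.3.3), using lmFit and trended eBayes for log2(FPKM + 0.1) values of genes with a mean of at least 0.1 FPKM. No block was used, since same-numbered libraries did not deviate together. The fit was tested on simulated data. Alternatives were pseudocounts of 1 and 0.01, no filter, limma-voom, a replicate block, a choroid plexus covariate, no trend, rescaling to one median and leaving out each library. Exact permutation of 3 against 3 libraries allows no p under 0.1. Python 3.11.15 made the tables. Nothing says whether each library is 1 mouse, so p-values measure the spread between these libraries. The 9 genes and the lists were chosen with earlier results of these data known. Named genes are the 9, the smallest p and highest level of each related list, the highest level of each cell type list, the 5 most similar profiles and Slc1a2.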

Additional observations from a re-analysis of the deposited data

How the results depend on the processing

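None of the 14 alternatives gave any of the 9 genes an adjusted p under 0.05 with limma, nor did those run for the related lists (a pseudocount of 1, no filter, limma-voom, the replicate block and leaving out each library) for their genes. At an unadjusted p under 0.05, 1 of the 9 genes (Fa2h) was lower with limma-voom and 1 (Fa2h) after rescaling to one median, and leaving out a library gave 0 to 1 lower and 0 to 1 higher. In the related lists, 1 gene was lower and 4 higher with limma-voom, and 2 were lower and 4 higher with the replicate block. Leaving out a library gave 0 to 1 lower and 2 to 5 higher there. Of all genes tested, 5.98% passed this threshold in either direction with limma-voom, 5.92% after rescaling and 5.94% with the replicate block. When a library was left out, 4.19% to 6.56% of all genes tested passed it. With the choroid plexus covariate the log2 fold change turned to -0.0057 for Cers2, 0.085 for Elovl1 and -0.14 for Elovl7. Leaving out a library turned it for Cers2 (-0.079 to 0.15), Elovl1 (-0.15 to 0.17) and Degs1 (-0.16 to 0.016), and the cause was not tested. The directions of Sptlc2, Fa2h, Ugt8a, Gal3st1 and Aspa held under all 14 alternatives. Groups lay apart for 3 of the 9 genes relative to structural myelin, a scale added after seeing the data, and for none otherwise. The 3 genes were all higher, as were 21.5% of all genes tested on that scale, with 0.544% lower. The median of the 9 genes lay between -0.16 and -0.01 when a library was left out and was -0.07 with the replicate block. Same-numbered libraries had correlations of 0.01, 0.04 and 0.003 between their deviations, and not every library was closest to its own number. Over all genes, 2 passed an adjusted p under 0.05 as reported, against 0 in most alternatives, 9 without a trend, 2 after rescaling and 6 without TG1. The 1238 genes at an unadjusted p under 0.05 became 697 with the choroid plexus covariate. That covariate was high only in TG1 and TG2, which costs precision for the genotype term, and the reason for the fall was not tested. Reads limit Gal3st1 and Aspa most, with 112 and 116 in TG1.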
